A study of Mus musculus with 6 samples.

Results

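RNA was sequenced from cancer-associated fibroblasts of mouse lung tumours, and 26 genes were high in the libraries apCAFs 1 and apCAFs 2 and low in the other 4. The apCAFs (antigen-presenting, MHC class II-positive) and nonapCAFs (class II-negative) were sorted from pooled orthotopic lung tumours of C57BL/6 wild-type mice over 8 weeks old, with 3 libraries each (apCAFs 1 to 3, nonapCAFs 4 to 6). Both populations were sorted as large cells that lacked CD45, CD31, EPCAM and the tumour reporter mCherry and carried PDPL (as the labels spell it) and PDGFRa. The labels report 3 independent experiments without saying which libraries share one, and a library from pooled tumours does not stand for a single mouse. A gene was taken where it was protein-coding, where the lower of apCAFs 1 and 2 was at least 100 normalized counts, and where that value was at least 8 times the highest of apCAFs 3 and nonapCAFs 4, 5 and 6 plus 1. This held for 26 of 21836 protein-coding genes, a share of 0.119%, among 55298 genes in all. The genes were thus chosen by their normalized counts in all 6 libraries, and their levels in this contrast are given as a description, with no test.

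Pulmonary surfactant is a film of lipid and protein that lowers surface tension at the air side of the alveoli. Type II alveolar epithelial cells make it, store it in lamellar bodies and secrete it. The hydrophobic surfactant proteins B and C spread the lipid, the collectins A and D bind microbes, and the transcription factor NKX2-1 is required for their expression. Type II cells also carry EPCAM, a protein against which these cells were sorted.

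The 3 genes that name the group, Sftpc, Sftpb and Sftpa1, met the rule, as did the fourth surfactant protein gene, Sftpd. Of 12 type II marker genes listed, 9 were among the 26. The list holds the 3 genes that name the group and was drawn up with earlier results known. Part of this count was therefore set in advance. Depth was estimated from the spacing of the low values, taking each as whole reads times 1 factor per library. In apCAFs 2 and 3, 99.2% and 99.6% of values lay on that spacing, while in the other libraries a read counted as less than 1 and every whole number lies on it. A read counted as 0.854 to 1.33 normalized counts by this estimate, which puts the libraries at an estimated 70300000 reads in apCAFs 3 to 97400000 in nonapCAFs 5. A value of 0 allows up to 3 reads, or 2.56 to 3.98 normalized counts depending on the library, and this limit covers counting error only. Values fell on even read numbers more often (63.2% to 72.7%) than the spacing gives (37.6% to 58.5%). If both ends of a fragment were counted, 3 fragments are worth 5.12 to 7.96 normalized counts. apCAFs 1 and 2 were the closest apCAFs pair over all genes too. Their log2 ratio had an SD of 0.238 over 17829 genes with a mean of at least 100, against 0.708 and 0.687 for apCAFs 3 against apCAFs 1 and 2. Among nonapCAFs, library 6 stood apart from 4 and 5 (SD 0.495 and 0.479, against 0.246 between 4 and 5). Globin genes were high in both libraries that stood apart. Hbb-bs, a beta-globin gene, read 18, 210 and 2053 in apCAFs 1, 2 and 3 and 7, 36 and 2177 in nonapCAFs 4, 5 and 6, and what part this has in the results was not tested. Without nonapCAFs 6 the rule gave 27 genes in place of 26, and without apCAFs 3 it gave 164. Fibroblast genes were present throughout, and 12 of them summed to between 1212243 normalized counts in nonapCAFs 6 and 4254282 in apCAFs 3.

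**Figure D1:**
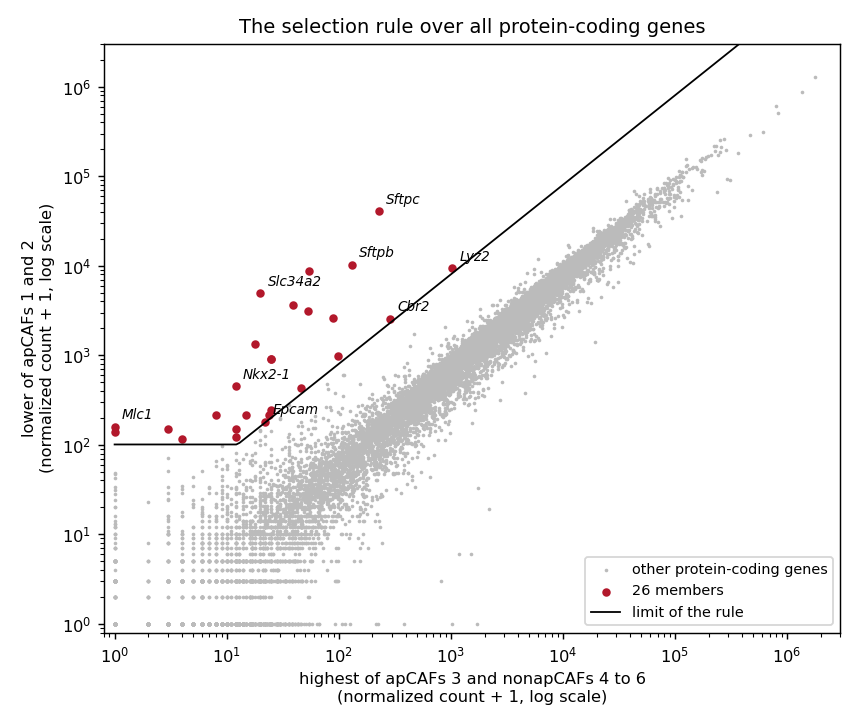
Each point is a protein-coding gene, plotted by the highest of apCAFs 3 and nonapCAFs 4 to 6 on the x axis and the lower of apCAFs 1 and 2 on the y axis, both as normalized count plus 1 on log scales. The 26 members (red) lie above the line that marks the rule, with Slc34a2 and Sftpc far from it and Epcam, Lyz2 and Cbr2 close to it.

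The surfactant protein genes were among the highest of the group, with Sftpc first and Sftpb second by normalized count. Sftpc, the gene for surfactant protein C (ENSMUSG00000022097, mm10 chromosome 14, 70520949 to 70524081), read 48853 in apCAFs 1 and 40491 in apCAFs 2, and 226, 185, 185 and 124 in apCAFs 3 and nonapCAFs 4, 5 and 6. It alone made up 43.7% of the summed normalized counts of the 26 genes in apCAFs 1 and 43.6% in apCAFs 2. Counted per kilobase of exon, Sftpc held rank 33 among protein-coding genes in apCAFs 1 and rank 42 in apCAFs 2, but rank 9948 in apCAFs 3. In bulk samples, fewer cells of a type and less RNA per cell cannot be told apart.

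Sftpb, which encodes surfactant protein B (chromosome 6, 72304610 to 72314371), read 13826 and 10327 in apCAFs 1 and 2, 72 in apCAFs 3, and 129, 64 and 32 in nonapCAFs 4, 5 and 6. Sftpa1, which encodes the collectin surfactant protein A (chromosome 14, 41131782 to 41136452), read 9646 and 8755, then 35, and 32, 53 and 19. Sftpd, the gene for the second collectin, lies 35761 bases from Sftpa1 on the same chromosome (41172214 to 41185149) and read 4516 and 3669, then 8, and 9, 38 and 26. For Sftpb, Sftpa1 and Sftpd the value in apCAFs 3 lay within or below the range of the nonapCAFs libraries, and for Sftpc it lay just above that range. Per kilobase of exon, the order in both apCAFs 1 and 2 was Sftpc, Sftpb, Sftpa1 and Sftpd. In apCAFs 1 these were 47247, 7025, 3373 and 1868 normalized counts per kilobase, and in apCAFs 2 they were 39160, 5247, 3061 and 1518.

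The surfactant protein genes kept nearly the same proportions in the pair, which is not particular to them. The log2 ratio of apCAFs 1 to 2 had an SD of 0.267 over the 26 members. It was 0.238 over 17829 genes with a mean of at least 100. Sftpb stood at 28.3% of Sftpc in apCAFs 1 and 25.5% in apCAFs 2, and Sftpa1 at 19.7% and 21.6%. Sftpd stood at 9.24% and 9.06%, and Slc34a2 at 13.5% and 12.3%. In the other libraries, from far fewer reads, Sftpa1 ranged from 15.3% to 28.6% of Sftpc and Sftpb from 25.8% to 69.7%. Lyz2 stood at 20.3% and 23.4% of Sftpc in apCAFs 1 and 2 but at 182% to 556% in the other 4 libraries. Lyz2 was not alone in this, as Wfdc2 stood at 2.17% and 2.41% in the pair and at 40% to 58.1% in the others. Lyz1, Hc and Cbr2 also stood higher in each of the others than in the pair, while Slc34a2 stood lower. Any gene that fell less than Sftpc from the pair to the others rises in this share, so nothing particular to Lyz2 is read from it.

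Since these genes were high in the same libraries, the 250 bases before their start sites were searched for 8 short motifs on both strands. RefSeq promoter sequences (build GRCm38.p6, the base assembly of mm10) were found for 21 of the 26 genes. Of the surfactant protein genes, Sftpb and Sftpa1 had an entry. They are printed here 5′ to 3′ on the coding strand, together with the chemokine gene Cxcl15, because they are the surfactant protein promoters that had an entry and a chemokine promoter with a TATA match. Capitals mark CTCAAG (the core that NKX2-1 binds), TGTTTNC (forkhead factors, which may read GNAAACA on the other strand) and TATAAA (the TATA box).
Sftpb, chr6:72304360-72304609, plus strand: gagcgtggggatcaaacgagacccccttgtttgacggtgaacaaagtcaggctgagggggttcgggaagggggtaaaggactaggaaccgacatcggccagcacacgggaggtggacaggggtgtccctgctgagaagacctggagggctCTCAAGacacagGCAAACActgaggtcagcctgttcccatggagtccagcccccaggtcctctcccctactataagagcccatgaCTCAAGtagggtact
Sftpa1, chr14:41131538-41131787, plus strand: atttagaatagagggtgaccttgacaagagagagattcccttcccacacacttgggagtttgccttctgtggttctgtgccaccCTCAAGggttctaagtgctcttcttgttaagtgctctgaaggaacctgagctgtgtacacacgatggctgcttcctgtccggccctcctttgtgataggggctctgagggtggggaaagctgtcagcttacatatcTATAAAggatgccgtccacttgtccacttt
Cxcl15, chr5:90794284-90794533, plus strand: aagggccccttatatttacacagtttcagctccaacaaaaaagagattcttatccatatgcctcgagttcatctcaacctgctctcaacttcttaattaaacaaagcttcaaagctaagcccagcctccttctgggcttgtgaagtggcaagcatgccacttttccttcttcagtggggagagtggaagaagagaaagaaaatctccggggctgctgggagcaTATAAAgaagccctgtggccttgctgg

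Counted back from the start site, Sftpb held CTCAAG at -100 to -95 and at -15 to -10 and a forkhead match at -88 to -82. Sftpa1 held CTCAAG at -166 to -161 and TATAAA at -30 to -25, and Cxcl15 held TATAAA at -27 to -22. Over the group, CTCAAG was present in 2 of 21 promoters (9.52%), Sftpb and Sftpa1, against 13.2% of 16633 protein-coding promoters of the same length. TGTTTNC was present in 4 of 21 (19.0% against 16%) and TATAAA in 5 of 21 (23.8% against 12%). The TATAAA promoters were those of Cxcl15, Hc, Muc4, Sftpa1 and Slc26a9. The C/EBP motif TTGCNNAA was present in 3 of 21 (14.3% against 9.01%) and the GATA motif AGATAA in 3 of 21 (14.3% against 8.86%). The GC box GGGCGG was present in 6 of 21 (28.6% against 44.4%) and CCAAT in 5 of 21 (23.8% against 36.0%). The grainyhead motif AACCNGTT was in none of the 21 (1.75% of all promoters). Median GC content was 52.0% in the members' promoters and 56.0% in all, and the ratio of observed to expected CpG had a median of 0.332 against 0.561. The RefSeq start used lies 11272 bases from the start of the gene in the files for Slc34a2, which held a C/EBP match at -48 to -41, and 94295 bases from it for Lamb3. These shares are a description of 21 promoters and say nothing of whether a factor binds there.

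Further genes of the type II cell's secretory work followed. Slc34a2, which encodes a sodium-phosphate cotransporter of the apical membrane (chromosome 5, 53038081 to 53071664), read 6576 and 4983 in apCAFs 1 and 2, 13 in apCAFs 3, and 19, 19 and 7 in nonapCAFs 4, 5 and 6. The lower of its pair was 249 times the highest other value plus 1, the most of all 26 genes. Napsa, whose product is an aspartic protease that processes the surfactant protein B precursor (chromosome 7, 44572380 to 44586862), read 1604 and 1333, then 3, and 9, 11 and 17. Napsa and Slc34a2 thus lay within or below the nonapCAFs range in apCAFs 3. The antisense gene Gm15396 shares 502 exon bases with Napsa, and the strand setting of the counting is not given in the sources used here, so reads of Napsa and Gm15396 may have been mixed.

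Secreted defence proteins made up a second block. Cxcl15, the gene for lungkine, a neutrophil-attracting chemokine of lung epithelium (chromosome 5, 90794534 to 90803067), read 3981 and 3150 in apCAFs 1 and 2, 15 in apCAFs 3, and 52, 10 and 19 in nonapCAFs 4, 5 and 6. Hc, which encodes complement component C5 (chromosome 2, 34983331 to 35061438), read 3360 and 2580, then 88, and 22, 46 and 19. Hc was among the 8 members whose value in apCAFs 3 exceeded all 3 nonapCAFs libraries. Wfdc2, the gene for a small secreted protein with whey acidic protein domains (chromosome 2, 164562413 to 164568510), read 1062 and 975, then 98, and 82, 74 and 72. Across the low libraries Wfdc2 was nearly even, at 7.07% to 9.62% of its mean in apCAFs 1 and 2.

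The lysozyme genes lie side by side on chromosome 10, 5475 bases apart. Lyz2 (117277331 to 117282321) read 9898 and 9470 in apCAFs 1 and 2, 640 in apCAFs 3, and 470, 1028 and 226 in nonapCAFs 4, 5 and 6. Lyz1 (117287797 to 117292868) read 939 and 914, then 8, and 10, 24 and 4. Of all 50-base stretches in the transcripts of Lyz1, 16.1% also occur in Lyz2, so some reads of this pair may have been assigned to either gene. For Cbr2 the share was 12.1%, matched by Gm11771, and for the other members it was at most 1.34%. Lyz2 is also a macrophage gene. The 14 macrophage and monocyte genes outside the group summed to 7027, 6964 and 10910 in apCAFs 1, 2 and 3 and to 4208 to 4714 in nonapCAFs. Cd14 was the largest part of the sum in each apCAFs library, with 2304, 2225 and 5163. Ptprc, the gene for CD45, read 24, 22 and 65 in apCAFs and 2 to 34 in nonapCAFs. What part macrophages have in the Lyz2 values was not tested.

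Cbr2, the gene for a carbonyl reductase of lung epithelium that club cells express (chromosome 11, 120729489 to 120732114), read 2636 and 2567 in apCAFs 1 and 2 and 53 in apCAFs 3. In nonapCAFs it read 268, 288 and 26. It was the member in which the low libraries differed most in absolute terms after Lyz2, and nonapCAFs 4 and 5 lay well above apCAFs 3 and nonapCAFs 6. The same division was seen in Muc4, which encodes a membrane mucin, with 267 and 244, then 0, and 24, 20 and 2. Muc4 shares 627 exon bases with the mucin gene Muc20 on the opposite strand, which read 81, 32 and 0 in apCAFs and 6, 5 and 0 in nonapCAFs.

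Transcription factors in the group were Nkx2-1 and Ehf. Nkx2-1, the lung epithelial homeobox factor (chromosome 12, 56531958 to 56536908), read 806 and 453 in apCAFs 1 and 2, 0 in apCAFs 3, and 11, 5 and 0 in nonapCAFs 4, 5 and 6. Its value in apCAFs 1 was 1.78 times that in apCAFs 2, against a median of 1.20 over the 26 members. Ehf, an epithelial factor of the ETS family (chromosome 2, 103263433 to 103303278), read 143 and 120, then 11, and 2, 9 and 0. Other factors of lung epithelium, chosen for naming after their values were seen, did not meet the rule. Foxa1 read 125, 116 and 5 in apCAFs 1, 2 and 3 and 110, 76 and 61 in nonapCAFs 4, 5 and 6. Foxa2 read 303, 267 and 122 against 371, 276 and 430, and Cebpa read 1611, 1538 and 1139 against 1065, 1024 and 872.

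Genes of the epithelial surface and its junctions were present at lower values. Cldn18, which encodes a tight junction claudin and is also counted as a type I marker (chromosome 9, 99689461 to 99717267), read 1128 and 905 in apCAFs 1 and 2, 0 in apCAFs 3, and 24, 7 and 14 in nonapCAFs. Epcam, the gene for the protein sorted against (chromosome 17, 87635979 to 87651129), read 181 and 209, then 21, and 13, 3 and 5. Epcam was at the limit of the rule with a ratio of 8.23. Lamb3, which encodes a chain of laminin-332, a laminin of epithelial basement membranes (chromosome 1, 193207699 to 193343878), read 270 and 212, then 23, and 6, 9 and 1. The annotated span of Lamb3 holds Hsd11b1 on the opposite strand, with no shared exon base; Hsd11b1 read 5526 to 7217 in apCAFs and 1003 to 2890 in nonapCAFs. Mal, a proteolipid of apical membrane sorting (chromosome 2, 127633226 to 127656695), read 130 and 114, then 0, and 0, 3 and 0.

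Transporter and enzyme genes were among the rest. Slc26a9, an epithelial chloride transporter gene (chromosome 1, 131744022 to 131771504), read 308 and 212 in apCAFs 1 and 2, 3 in apCAFs 3, and 0, 7 and 0 in nonapCAFs. Slco4c1, an organic anion transporter gene on chromosome 1 (96816270 to 96872171), read 154 and 151 and at most 2 elsewhere. Car8, whose product resembles a carbonic anhydrase but lacks its catalytic activity (chromosome 4, 8143362 to 8239041), read 303 and 217, then 11, and 14, 12 and 5. Tat, the gene for tyrosine aminotransferase (chromosome 8, 109990437 to 109999803), read 150 and 188, then 11, and 0, 1 and 0. Egfl6, a secreted protein gene with EGF repeats (chromosome X, 166523007 to 166585720), read 484 and 436, then 45, and 0, 5 and 2. Tat and Egfl6 were the members in which apCAFs 3 stood furthest above nonapCAFs in proportion, at 11 and 9 times the highest nonapCAFs library, though from few reads.

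Of the 26 genes, only Mlc1 and Tc2n were at 0 in all 4 other libraries. Mlc1, a membrane protein gene best known from astrocytes (chromosome 15, 88955884 to 88979007), read 297 in apCAFs 1 and 159 in apCAFs 2, a ratio of 1.87 that was the highest of the group. Tc2n, a gene for a protein with tandem C2 domains (chromosome 12, 101645443 to 101718523), read 187 and 138. In all, 7 members were at 0 in apCAFs 3, 6 in nonapCAFs 4, 3 in nonapCAFs 5 and 8 in nonapCAFs 6.

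**Figure D2:**
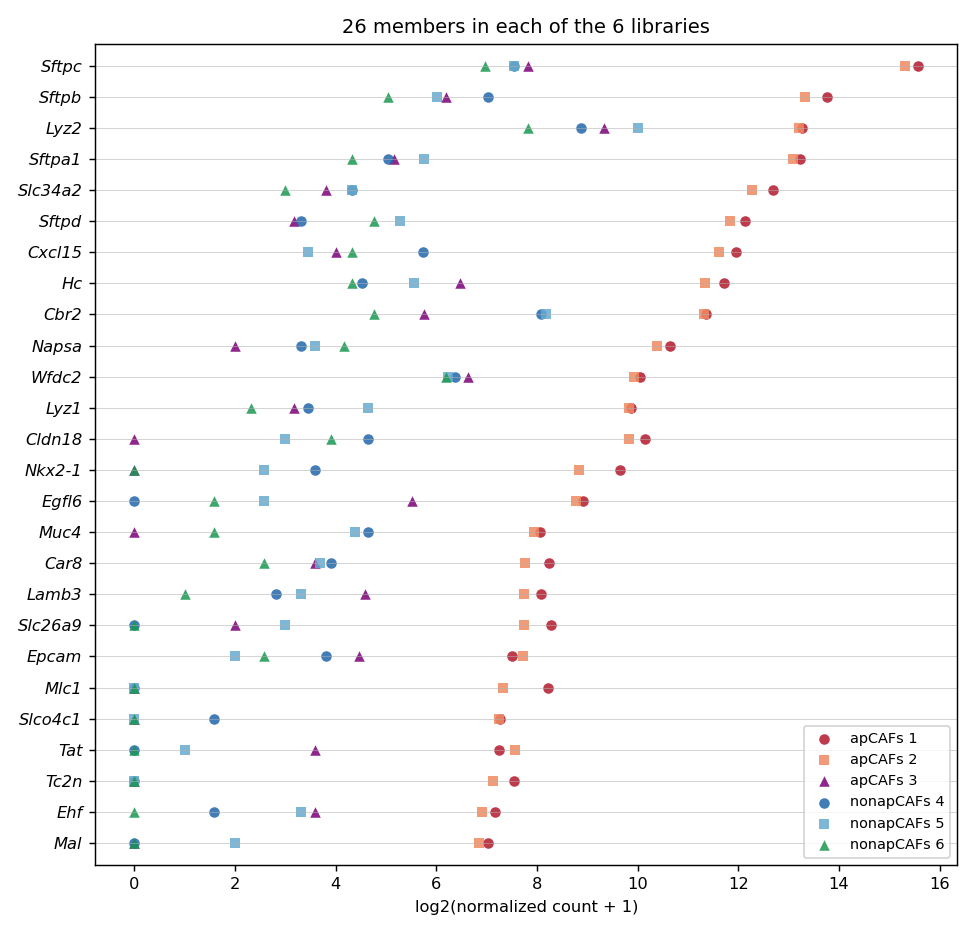
The 26 members are listed from the highest to the lowest value of their lower library, with log2(normalized count + 1) on the x axis and 1 point per library. The points of apCAFs 1 and 2 lie close together at the right in every row, and the other 4 libraries are spread from 0 to 1028 normalized counts, the highest being Lyz2 in nonapCAFs 5.

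Over the group, the summed normalized counts were 111705 in apCAFs 1 and 92972 in apCAFs 2, and 1384, 1383, 1921 and 620 in apCAFs 3 and nonapCAFs 4, 5 and 6. These sums were 0.124% and 0.103% of all normalized counts in apCAFs 1 and 2 and 0.000795% to 0.0023% in the other libraries. The summed level in apCAFs 3 thus lay inside the range of the nonapCAFs libraries. In 14 of the 26 genes the apCAFs 3 value was also within the nonapCAFs range, in 8 it was above and in 4 below. Among the 12972 protein-coding genes with a lower value of at least 100 in apCAFs 1 and 2, apCAFs 3 was above every nonapCAFs library in 45.0% and below every one in 42.0%. Since the rule caps apCAFs 3, nothing is read from the members' smaller shares.

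The members also differed between apCAFs 1 and 2, a comparison that the rule bounds only through the lower value. The value was higher in apCAFs 1 in 24 of 26 genes, with a median ratio of 1.20, while 9214 of 17829 genes with a mean of at least 100 were higher there and their median ratio was 1.0. The surfactant protein genes had ratios of 1.21 (Sftpc), 1.34 (Sftpb), 1.10 (Sftpa1) and 1.23 (Sftpd). Lyz2, Lyz1, Cbr2 and Slco4c1 were nearly even, at 1.05, 1.03, 1.03 and 1.02. Tat (0.798) and Epcam (0.866) were the genes that were higher in apCAFs 2.

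**Figure D3:**
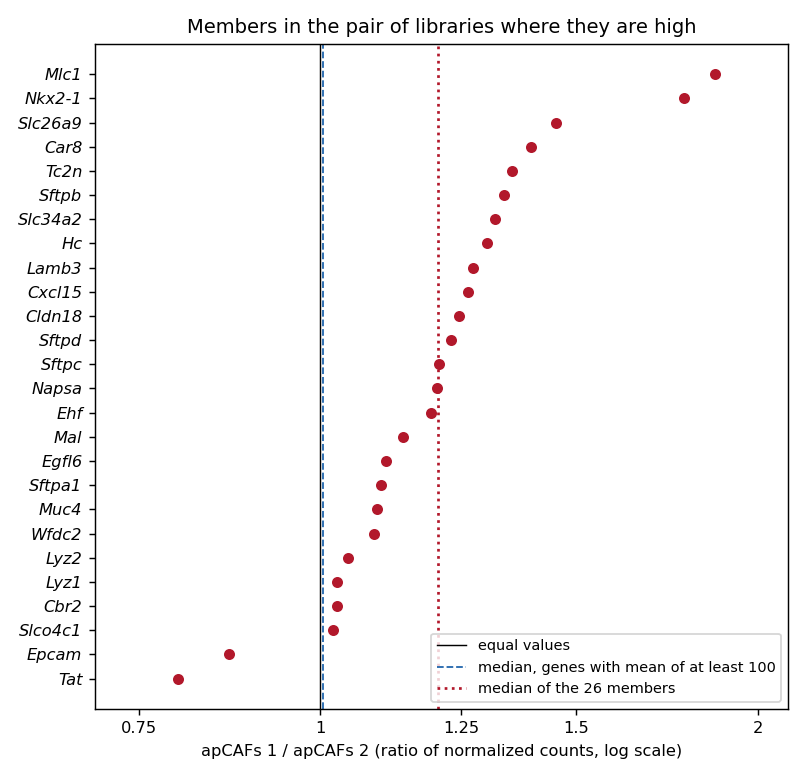
Each point is 1 member, placed by the ratio of its normalized count in apCAFs 1 to that in apCAFs 2 on a log scale. All but Tat and Epcam lie right of 1, and the dotted median of the 26 members (1.20) lies right of the dashed median of all genes with a mean of at least 100 (1.0).

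The rule's limit did not separate the group sharply at its lower end. The members just inside were Cbr2 (ratio 8.88), Lamb3 (8.83) and Epcam (8.23). The genes just outside were AU021092 (7.78), the epithelial serine protease gene Tmprss2 (7.30) and Ppp1r14c (7.05), with 35, 19 and 19 normalized counts in apCAFs 3. Of the members, 10 had a ratio under 16 and 5 a ratio of at least 100, namely Slc34a2, Sftpc, Sftpa1, Mlc1 and Tc2n. Of the 164 genes that passed without apCAFs 3, 138 failed the full rule through their value in apCAFs 3 alone. Genes of other biotypes that would have passed were Gm15396 (299 and 238 in apCAFs 1 and 2), Gm43085 (343 and 275) and Sfta3-ps (333 and 239). All of them adjoin a member. Gm15396 overlaps Napsa, Gm43085 begins 194 bases past Cxcl15 on the same strand, and Sfta3-ps lies 2530 bases from Nkx2-1.

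Genes of the same functions outside the group were tested with limma on log2(value + 1), apCAFs against nonapCAFs, which called 3.91% of 36443 genes higher and 0.486% lower at an adjusted p of 0.05. The median log2 difference over all of them was -0.04. At an unadjusted limma p under 0.05, 4764 of the 36443 genes were higher, while the counts given for lists at that level take both directions. limma called 0 of the 26 members, with 8 at an unadjusted p under 0.05, while the authors' deposited table lists 21 of the 26 under 0.05 against 20.6% of its genes called higher; the rule used this contrast, and nothing is read from either count. The 3 type II markers outside the group read between 800 and 5068 normalized counts in every library, and limma called 0 of them, with 0 at an unadjusted p under 0.05. Abca3, the lamellar body lipid transporter gene, read 4895, 4389 and 4425 in apCAFs and 3546, 3691 and 3941 in nonapCAFs (log2 difference 0.29, SE 0.13, limma adjusted p = 0.296). Etv5 read 5068, 4455 and 3387 against 4287, 4289 and 3322 (0.11, SE 0.22, limma adjusted p = 0.78), and the lysosomal membrane gene Lamp3 read 2863, 2605 and 800 against 1903, 1884 and 1530 (0.04, SE 0.53, limma adjusted p = 0.972). The signs of Etv5 and Lamp3 turned negative with values scaled to library totals. Neither gene passed the test.

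Genes of surfactant lipid synthesis and the lamellar body were mostly present in all libraries. Of 18 outside the group, limma called 1 higher and 0 lower, with a median log2 difference of 0.35, and in 6 both apCAFs 1 and 2 lay above the other 4 libraries. The called gene was Chpt1, which makes phosphatidylcholine, with 2271, 2273 and 2864 in apCAFs and 1069, 1165 and 1174 in nonapCAFs (log2 difference 1.11, SE 0.16, limma adjusted p = 0.0279). The fatty acid synthase gene Fasn read 36798, 34839 and 20160 against 46014, 49298 and 34593 (limma adjusted p = 0.374), and the desaturase gene Scd1 31331, 26189 and 14628 against 18460, 18710 and 12751 (limma adjusted p = 0.494). Fasn and Scd1 thus read at least 12751 in libraries where Sftpc read 124 to 226.

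Other epithelial genes showed several patterns. Of 21 general epithelial genes outside the group limma called 4 higher and 0 lower, with a median of 2.86. In each of the 4 called genes apCAFs 3 was the highest library. A gene low in apCAFs 3 spreads widely within apCAFs, which makes a limma call less likely, so nothing is read from this. Krt19 read 3451, 3410 and 3805 against 205, 203 and 124 in nonapCAFs (log2 difference 4.35, SE 0.24, limma adjusted p = 0.0069). The lists overlap, and Krt19 is also counted among the keratins and the mesothelial genes. The protease inhibitor gene Spint1 read 318, 297 and 453 against 2, 7 and 17 (5.54, SE 0.68, limma adjusted p = 0.0212), and Spint2 and Cldn3 were also called. In 12 of the 21 genes, both apCAFs 1 and 2 lay above each of the other 4 libraries, a pattern found in 5.23% of all genes tested. That share is over 36443 genes of every biotype, of which 17829 had a mean of at least 100. The share among expressed protein-coding genes, which the lists resemble more, was not taken. Among these, named after their values were seen, the cadherin gene Cdh1 read 786, 602 and 111 against 33, 36 and 2 (limma adjusted p = 0.137). The membrane protease gene St14 read 194, 215 and 29 against 6, 22 and 14 (limma adjusted p = 0.166). Others, named in the same way, followed neither pattern. The tight junction gene Ocln read 370, 334 and 141 against 552, 580 and 532 (limma adjusted p = 0.23). The keratin gene Krt18 read 4975, 5114 and 2031 against 6346, 5669 and 4277 (limma adjusted p = 0.518), and the factor gene Elf3 read 354, 222 and 37 against 262, 274 and 89 (limma adjusted p = 0.837).

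The same count was 9 of 18 for epithelial transcription factors outside the group, 7 of 12 for ion and water transport genes, 5 of 6 for mucins and 7 of 12 for ciliated cell genes. It was 2 of 3 for type II markers, 4 of 12 for keratins, 4 of 11 for type I genes and 1 of 11 for club and secretory airway genes. Among other cells it was 4 of 11 for pericyte and smooth muscle markers, 2 of 10 for mesothelial, 2 of 13 for alveolar macrophage and 1 of 14 for macrophage markers, and 1 each of 10 neutrophil, 10 endothelial and 8 erythroid markers. It was 0 of 12 for fibroblast, 12 lymphocyte, 11 class II and 9 dendritic cell genes. Epithelial lists thus did not all stand above the lists of other cells. The count takes any margin, and some genes lay near the floor, where counting error can set the order. Muc5ac, for example, read 13, 4 and 0 in apCAFs and 0 in each nonapCAFs library. Tekt1 read 23, 63 and 15 against 2, 10 and 20. limma called 4 of the 18 factors higher, the homeobox genes Irx3 and Irx1 and the factor genes Ovol1 and Gata6, and 4 of the 12 transport genes, the water channel gene Aqp5, Atp1b1, Atp12a and Kcnj15. None of either list was called lower. Of the mucins 0 were called, with 3 at an unadjusted p under 0.05, and of the ciliated genes 1 was called higher. Of the 4 called factors, Irx1 had the lowest value in apCAFs 3 relative to apCAFs 1 and 2, with 577, 374 and 92 in apCAFs and 7, 2 and 15 in nonapCAFs (log2 difference 5.23, SE 0.93, limma adjusted p = 0.0467). Gata6 went the other way within apCAFs, with 5733, 5779 and 13935 against 1367, 1372 and 1793 (2.37, SE 0.40, limma adjusted p = 0.0427).

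**Figure D4:**
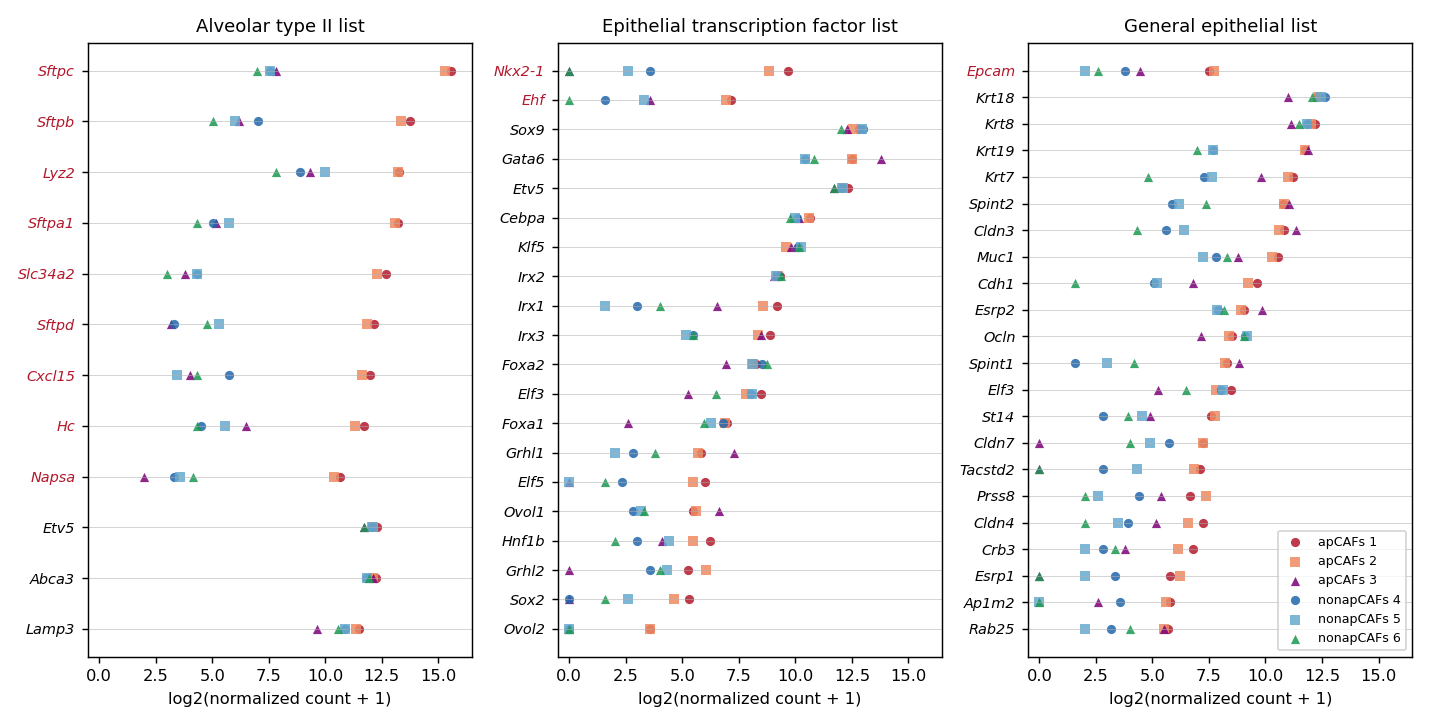
Genes of 3 lists are plotted by log2(normalized count + 1) on the x axis, 1 point per library, with members of the group named in red. In the type II list the 9 members separate apCAFs 1 and 2 widely from the other libraries. Etv5 and Lamp3 are also highest in that pair, by a smaller margin, while Abca3 in apCAFs 2 lies below apCAFs 3. In the other lists genes such as Krt19, Spint1 and Gata6 are high in apCAFs 3 too.

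Markers of other cells in the same libraries were as follows. Of 11 type I alveolar genes outside the group limma called 4 higher and 0 lower (median 0.74), with Aqp5 at 1167, 1072 and 3063 in apCAFs against 55, 74 and 75 in nonapCAFs (log2 difference 4.52, SE 0.45, limma adjusted p = 0.0151). Of 10 mesothelial genes 9, Krt19 among them, were called higher and 0 lower (median 3.91). The sum of the 10 was 45049, 43047 and 56286 in apCAFs against 5504 to 6405 in nonapCAFs. Class II genes, which define the sort and which type II cells also express, were called higher in 9 of 11 and lower in none (median 3.71). H2-Aa, the class II alpha chain gene, read 11556 and 12693 in apCAFs 1 and 2 and 22115 in apCAFs 3, the library in which the 26 genes were low, and 187 to 252 in nonapCAFs. Over all 36443 genes limma called 3.91% higher. It also called 2 of 11 club cell genes higher, 2 of 12 keratins, 4 of 12 fibroblast genes and 5 of 11 pericyte and smooth muscle genes. It called 1 each of 14 macrophage, 13 alveolar macrophage, 9 dendritic cell and 10 endothelial genes, counts from which nothing is read. It called 0 of 12 lymphocyte, 10 neutrophil and 8 erythroid genes, with 4, 1 and 2 at an unadjusted p under 0.05, and the summed erythroid values were 1599, 2048 and 7810 in apCAFs and 935, 1050 and 7598 in nonapCAFs. Over all lists, 50 genes outside the group were called higher. That number was 56 without apCAFs 3, 36 without nonapCAFs 6, 16 without apCAFs 2, 18 without apCAFs 1 and 21 without either nonapCAFs 4 or nonapCAFs 5. What part epithelial cells in the sorted fraction have in the 26 genes' values was not tested.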

How the data were processed

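RNA from 6 sorted populations was sequenced, 3 libraries per group. Per the submitters' processing notes, the authors used Trim Galore, Bowtie2 and DESeq2 with the mm10 build; no source used here gives versions, the counter, the annotation or the strand setting. Per the file headers, the deposited value of a gene in a library is a normalized count that the authors rounded, handled here as a score and not as a raw count. The deposited table also gives the authors' log2 and linear fold change, DESeq2 p-value and adjusted p, and GC percent per gene. The log2 values per library were not used.

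Coordinates are those of the files; all 26 genes have the same ones in GENCODE M21, from which exon lengths were taken. The value of 1 read was found as the spacing for which low values most often fell on even read numbers, searched up to 1000. Groups were compared two-sided with limma 3.58.1 (R 4.3.3) on log2(value + 1), without a variance trend, over genes above 0 in at least 1 library and with Benjamini-Hochberg adjustment over all of them; the fit was tested on simulated data. As the labels do not place each library in an experiment, p-values measure only the spread between these libraries. A log2 difference on this scale understates the change of low genes.

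The members, the 23 gene lists and the tests were chosen with earlier results of these data known. Named members were those in a list, the 15 highest, the 5 with the highest ratio, the 3 nearest each side of the limit and neighbours within 200 kb. From the lists, up to 4 called genes were named, or the 3 most abundant where fewer than 2 were called; others are marked. The table used here has no row for the 13 mitochondrially encoded genes listed as a sign of RNA quality. Alternatives changed the rule's floor, fold and offset, the scaling, pseudocount, filter and variance trend, and left out each library.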

Additional observations from a re-analysis of the deposited data

How the results depend on the processing

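The apCAFs carry the numbers 1 to 3 and nonapCAFs the numbers 4 to 6, and the labels do not say which of them share an experiment. No paired analysis could therefore be set up, and the limma fit ignores any pairing there may be. The count of 26 genes was 42 with a 4-fold and 16 with a 16-fold threshold, and 26 to 164 with 1 library left out, the highest without apCAFs 3; it was 19 to 31 under the other changes of floor, offset, scaling and biotype. All 26 passed at 4-fold and with any 1 library left out, which had to be so because these changes only loosen the rule. limma's higher calls, 1425, were 2267 with a pseudocount of 8, 2251 with a mean of at least 10, 2963 with a variance trend, 254 to 1601 with 1 library left out and 2797 without both apCAFs 1 and 2, an alternative added after the data were seen. The last compares apCAFs 3 alone, assumed to vary like nonapCAFs. The lower calls, 177, were 281 with quantile normalization, 490 with a trend, 56 to 198 with 1 library left out and 1778 without both. The 50 list genes called higher were 81 with a trend and 16 to 56 with 1 library left out. Of 30 called list genes, not all of them named here, all stayed higher in every alternative. With 1 library left out, 10 to 25 of them stayed called. They were picked mainly by a small p in this same contrast, so staying higher was likely. The log2 difference of Etv5 was -0.044 and that of Lamp3 -0.11 with values scaled to library totals, and Lamp3 was -0.077 with quantile normalization. With 1 library left out, Etv5 ranged from -0.020 to 0.27, Lamp3 from -0.29 to 0.63, Acly from -0.19 to 0.0068 and Muc5b from -1.24 to 2.76. Without both apCAFs 1 and 2, the log2 difference fell below 0 for Nkx2-1 (-2.06), Napsa (-1.69), Sftpd (-1.28), Cbr2 (-1.25), Mal (-0.67), Slc34a2 (-0.074), Cxcl15 (-0.50), Cldn18 (-3.85), Slco4c1 (-0.53), Lyz1 (-0.31) and Muc4 (-3.54), and outside the group for Scd1 (-0.16), Etv5 (-0.22), Lamp3 (-1.14) and Muc5b (-2.90). For the members a fall is built in, because the rule takes genes high in apCAFs 1 and 2 and caps apCAFs 3. Nothing is therefore read from the members' signs. The cause of the other changes was not tested.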

Other observations

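Several airway secretory genes were high in apCAFs 2 and not in apCAFs 1. Scgb3a1, a secretoglobin gene, read 9, 197 and 0 in apCAFs 1, 2 and 3 and 14, 9 and 8 in nonapCAFs 4, 5 and 6. The gel-forming mucin gene Muc5b read 9, 258 and 0 and then 13, 29 and 0. Bpifa1 and Bpifb1, which encode secreted proteins of the upper airways, read 0, 116 and 0 and 9, 146 and 0 in apCAFs, and at most 15 in nonapCAFs. Reg3g, an antimicrobial lectin gene, read 15, 375 and 60 against 30, 31 and 32. Scgb1a1, the club cell secretoglobin gene, was present in all libraries, with 752, 1282 and 167 against 629, 181 and 97. Other genes of the list of 12 club and secretory airway genes were near even in the pair, such as Hp, the haptoglobin gene (17762 and 19403), Aldh1a1 (7615 and 8600) and Cyp2f2 (245 and 296). The genes named here were chosen after their values were seen, and the high values of Scgb3a1, Muc5b, Bpifa1, Bpifb1 and Reg3g rest on 1 library and were not called by limma. When the rule was applied without apCAFs 1, 34 genes passed, and Bpifa1, Bpifb1, Muc5b and Scgb3a1 were among the 8 that were added.

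Without apCAFs 2 the rule took 36 genes. The 10 added were AU021092, Acoxl, Chrm2, Kcne2, Ppp1r14c, S100g, Slc26a4, Tmprss4, Scnn1b, a subunit gene of the epithelial sodium channel, and Sfta2, named for its association with surfactant. Scnn1b read 114, 70 and 0 in apCAFs and 2, 0 and 0 in nonapCAFs, and Sfta2 read 129 and 65, then 7, and 0 in every nonapCAFs library.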
